A study of Mus musculus with 4 samples.

Results

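The S100 calcium-binding protein family was followed in cultured mouse aortic endothelial cells that had been given the supernatant of inflammatory macrophages. The members were 10 genes (S100a1, S100a4, S100a6, S100a8, S100a9, S100a10, S100a11, S100a13, S100a16 and S100b) of the 27179 rows in the deposited count table, found there by their symbols. They were chosen by family with their levels and changes in these same libraries known, so the values of the members are a description, and an adjusted p printed for a member comes from the fit over all genes and is not independent evidence of its change. The cells were of the mAEC line, an established line that models the inner lining of a large artery and holds no blood, smooth muscle or flow. The control group (2 libraries, control 1 and control 2) was kept in normal medium, and the conditioned medium group (2 libraries, medium 1 and medium 2) was treated with supernatant of TNFα+CD68+ macrophages, that is, of macrophages that carry the inflammatory cytokine TNFα and the lysosomal macrophage protein CD68. The series calls the libraries of a group biological replicates; nothing in the labels says whether they came from separate cultures, how the macrophages were obtained or what the dose and length of exposure were, and p-values measure only the spread between these libraries.

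S100 proteins are small acidic proteins that bind calcium through a pair of EF-hand loops and then expose a surface that grips partner proteins; most work as dimers. Inside cells they act on the cytoskeleton, annexins and membrane repair, and outside cells several act as alarm signals through Toll-like receptor 4 (TLR4) and the receptor for advanced glycation end products (RAGE). S100A8 and S100A9, which pair as calprotectin, are best known from neutrophils and monocytes, and S100A8 can also be made by activated endothelium. S100A10 is the exception in the family: it has lost calcium binding and is held by annexin A2.

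S100a8, the inflammatory member, rose 4.02-fold in conditioned medium and S100a4, a binder of non-muscle myosin, rose 1.82-fold. S100a13 and S100a6 rose by 1.26-fold and 1.18-fold. The most abundant member, S100a11, and S100a10 and S100a16 had fold changes from 0.94 to 1.01 and were not called. The partner of S100a8, S100a9, stayed near the limit of detection with 2 and 0 counts in control and 8 and 22 in conditioned medium. Of the 10 members 8 passed the count filter, each with at least 81 counts in every library; S100a9 and S100b did not pass. Of these 8, 4 were called higher (adjusted p under 0.05 in edgeR's quasi-likelihood test), where 8.53% of all tested genes were called higher. Of the 8, 0 were called lower, where 8.23% of all tested genes were. Without medium 2 the count of called members was 2. Over both directions 16.8% of the 13897 tested genes were called, and nothing is read from the members' count beside it, since the same contrast was in view when they were proposed. The median log2 fold change of the 8 members was 0.22, and that of all tested genes was 0.00.

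The sequences just before the annotated starts of S100a8, S100a9, S100a4 and S100a11 are given because these genes span the range of the family. They are the most changed tested member, its barely detected partner, the second most changed tested member and the most abundant. Each line holds the 250 bases before the start, 5′ to 3′ on the gene's own strand, from RefSeq with GRCm38.p6 coordinates (S100a8 chr3:90668821-90669070, plus strand; S100a9 chr3:90695722-90695971, minus strand; S100a4 chr3:90603520-90603769, plus strand; S100a11 chr3:93520246-93520495, plus strand). Capitals mark matches to the motifs described after the sequences.
S100a8: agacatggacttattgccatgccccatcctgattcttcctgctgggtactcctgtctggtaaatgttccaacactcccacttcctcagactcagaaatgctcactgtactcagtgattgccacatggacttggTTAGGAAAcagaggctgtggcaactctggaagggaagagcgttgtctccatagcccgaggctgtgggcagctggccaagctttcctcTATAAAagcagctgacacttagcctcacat
S100a9: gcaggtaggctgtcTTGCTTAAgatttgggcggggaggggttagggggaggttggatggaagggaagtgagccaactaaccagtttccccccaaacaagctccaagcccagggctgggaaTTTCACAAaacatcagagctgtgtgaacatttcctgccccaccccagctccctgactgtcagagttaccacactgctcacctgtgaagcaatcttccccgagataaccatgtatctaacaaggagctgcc
S100a4: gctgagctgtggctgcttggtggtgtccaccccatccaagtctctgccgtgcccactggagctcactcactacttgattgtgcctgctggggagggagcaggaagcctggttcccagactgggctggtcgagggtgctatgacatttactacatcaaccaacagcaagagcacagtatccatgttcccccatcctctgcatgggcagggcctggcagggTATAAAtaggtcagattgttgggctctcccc
S100a11: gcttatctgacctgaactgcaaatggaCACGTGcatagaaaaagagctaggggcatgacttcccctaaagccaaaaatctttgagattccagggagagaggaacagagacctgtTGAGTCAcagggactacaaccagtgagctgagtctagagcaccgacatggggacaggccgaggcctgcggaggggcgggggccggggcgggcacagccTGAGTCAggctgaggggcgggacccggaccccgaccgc

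Of the 10 members 9 had an entry among the RefSeq promoter windows, in 10 windows of 300 bases that run from 250 bases before to 50 after a start; S100a10 had none. On both strands the windows were searched for the AP-1 site TGANTCA, the C/EBP-type site TTNNGNAA, the STAT-type site TTCNNNGAA, the core ACGTG of the hypoxia response element and the NF-kB consensus. On the gene strand they were searched for TATAAA, the TATA box, which was chosen after the sequences were seen. The S100a8 window held the C/EBP-type match TTAGGAAA, 117 bases before the start, and TATAAA 30 bases before it. The S100a9 window held the C/EBP-type matches TTGCTTAA and TTTCACAA, 236 and 130 bases before the start on the opposite strand, and a TATAAA that begins at the annotated start and so lies outside the bases printed. TATAAA stood 31 bases before the start of S100a4. These were the 3 members with a TATAAA, a motif held by 8.32% of all 32851 windows. A C/EBP-type match is common, at 40.7% of all windows. The S100a11 window held no TATAAA and 2 AP-1 matches TGAGTCA, 136 and 38 bases before the start (an AP-1 match stands in 7.81% of windows), and a CACGTG, which reads ACGTG on both strands and overlaps itself, 223 and 222 bases before it (ACGTG stands in 19.6% of windows). S100a6 held an ACGTG just after its start and the second S100a16 window an AP-1 match 192 bases before its start. The S100a1, S100a13 and S100b windows held no match to any motif searched. STAT-type sites, in 8.3% of all windows, and NF-kB sites, in 4.51%, were in none of the members' windows. A match is a description of letters, not of a bound site.

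Library totals ranged from 13815695 to 18005840 counts, at which 3 counts equal 0.167 to 0.217 CPM (normalised counts, scaled to library size); such floors and the count intervals given later cover counting error only. Of 13 endothelial markers 12 passed the count filter, with Pecam1 at 2384 to 2443 CPM and Cdh5 at 1893 to 2012 CPM in every library. The tight junction gene Cldn5 was at 0, 0, 1 and 0 counts and Vwf at 34, 51, 33 and 61. In bulk libraries, fewer cells that express a gene and less RNA per cell cannot be told apart.

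The levels of the members spanned a wide range. Per kb of exon, where levels can be set side by side, S100a11 stood highest in control cells at 850 ± 58.2 CPM per kb (mean ± SD, n = 2 libraries, as for every SD here), above 99.8% of tested genes. S100a6 at 183 ± 20 and S100a10 at 172 ± 7 CPM per kb followed, and their control libraries overlapped, so their order is not resolved by exon length. S100a4 stood at 85.6 ± 15.6, S100a13 at 52.5 ± 5.94 and S100a16 at 33.7 ± 2.37 CPM per kb, each apart from its neighbours in both control libraries. S100a8 at 14.2 ± 6.49 and S100a1 at 9.22 ± 0.21 CPM per kb came next and were not separated, since the lower S100a8 library, at 9.56, was close to the S100a1 libraries, at 9.37 and 9.07. S100b at 0.137 ± 0.129 and S100a9 at 0.13 ± 0.183 CPM per kb were at the limit of detection and not ordered. In conditioned medium S100a8 reached 56.8 ± 3.4 CPM per kb and passed S100a16 at 31.7 ± 0.724, which moved it from rank 7 to rank 6, below S100a13 at 66.1 ± 0.397. With the coding length in place of the exon length S100a16 came before S100a13 in control cells, at 146 against 78.3 CPM per kb. By that length S100a6 stood above S100a10 in control cells, at 936 ± 102 against 717 ± 29.1 CPM per kb. In conditioned medium the order of S100a8 and S100a13 turned with the length used: S100a8 stood above S100a13 by the longest transcript, at 79.1 against 66.1 CPM per kb, and by the coding length, at 148 against 98.4.

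**Figure D1:**
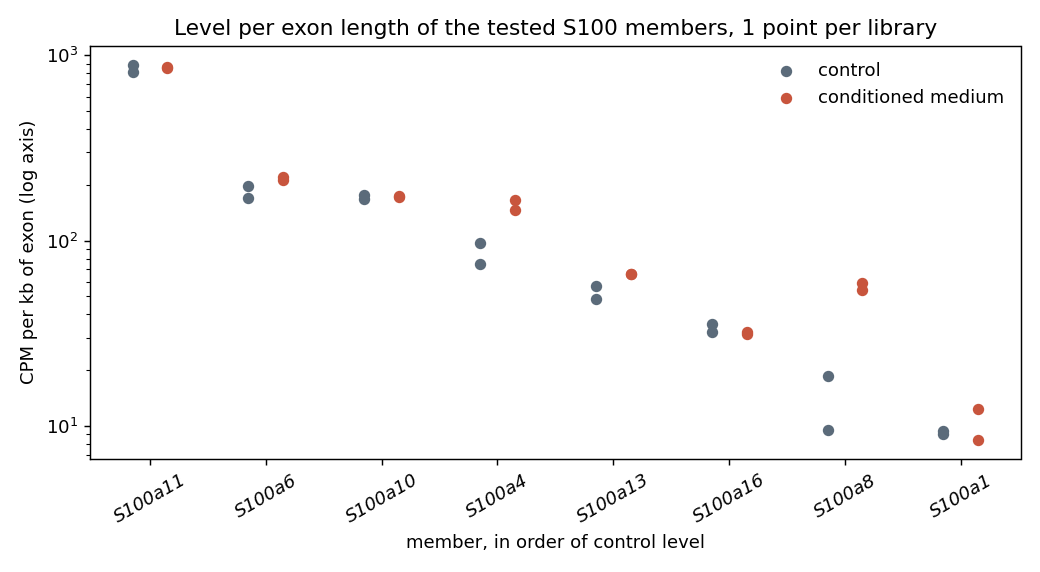
Level per exon length (CPM per kb of exon, log axis) of the 8 tested S100 members, 1 point per library, control in grey and conditioned medium in red, ordered by the control mean. S100a11 lies at 809 to 891 in all 4 libraries, and S100a8 moves from 18.7 and 9.56 in control to 54.4 and 59.2 in conditioned medium.

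The summed level of the members was 1113 and 990 CPM in control and 1176 and 1192 CPM in conditioned medium, higher without overlap. The smallest gap between the groups was less than the gap inside the control pair. S100a11, S100a6 and S100a10 dominate this total, and S100a6 among them was itself called higher, as were the less abundant S100a4, S100a8 and S100a13. All members together took 0.11% and 0.0998% of the control libraries and 0.118% and 0.119% of the conditioned medium libraries. S100a11, S100a6 and S100a10 made 84.4% and 85.6% of the members' counts in control and 79.6% and 80.3% in conditioned medium. The share from S100a8 went from 1.17% and 0.671% to 3.21% and 3.45%, and that from S100a4 from 5.07% and 4.4% to 8.21% and 7.18%. None of these shares overlapped between the groups. They restate the changes of the members given above and depend on each other, so they are no further result. Of all tested genes 57.2% did not overlap in CPM.

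S100a8 (Entrez 20201, chromosome 3, 90669071 to 90670034, plus strand), 1 of the calprotectin subunits, had 13 and 6.64 CPM in the control libraries and 37.7 and 41.1 CPM in the conditioned medium libraries. The groups did not overlap, and the control libraries were further apart in ratio than the conditioned medium libraries. The means were 9.82 ± 4.5 and 39.4 ± 2.36 CPM. The log2 fold change, conditioned medium over control, was 2.01 ± 0.15 (SE, as in all later log2 fold changes), with a 95% interval of the fold from 3.23 to 4.99 and an edgeR adjusted p of 1.41e-08. As for every gene, the SE, interval and p rest in part on the spread of all genes. They do not rest on the spread of S100a8 alone. S100a8 ranked 12 by log2 fold change among all tested genes, at which point or above lay 0.0863% of them. The control libraries held 192 and 97 counts, a CPM ratio of 1.96; of 2120 genes with a mean control count within 1.5 times of its own, 0.0943% differed more between the control libraries. Leaving out a library gave log2 fold changes from 1.60 to 2.57, and the call was lost when the spread was estimated robustly, with an edgeR adjusted p of 0.0665, the highest of its 14 alternatives.

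S100a9 (Entrez 20202, chromosome 3, 90692630 to 90695721, minus strand), the other calprotectin subunit, had 2 and 0 counts in control and 8 and 22 counts in conditioned medium. Counts were higher in both conditioned medium libraries, and medium 2 alone held most of them. Summed over each group and set against its library size, 30 counts against 2 gave a ratio of 13.8 (exact 95% interval 3.5 to 119). The gene did not pass the count filter; without a filter the fitted log2 fold change was 3.63 (edgeR adjusted p = 0.0139). With a library left out S100a9 passed the filter in 3 cases, each time through the 22 counts of medium 2, so these fits are no separate support. The fitted log2 fold change moved widely, to 6.87 without control 1, 2.72 without control 2 and 4.01 without medium 1. All are edgeR fits that depend on the prior count. For each S100a9 count the control libraries together held 144 S100a8 counts, and the conditioned medium libraries 65.4 and 33.7. S100a8 transcripts thus outnumbered those of its partner by far in every library that held both.

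S100a8, S100a9 and several of their linked genes are also neutrophil or macrophage genes, so the markers of these cells are given beside them. Of 15 neutrophil markers 5 (Mpo, Ctsg, Mmp8, Retnlg and Csf3r) were at 0 in all libraries, 10 had under 10 counts in every library, and the list's summed level, 2323 and 2506 CPM in control and 2001 and 2197 CPM in conditioned medium, was nearly all Lcn2. Ly6g had 1, 0, 8 and 10 counts and Chil3 1, 3, 8 and 11. Cxcr2, a chemokine receptor of neutrophils, rose from 6.57 and 6.84 to 21.6 and 25.8 CPM (log2 fold change 1.83 ± 0.13, edgeR adjusted p = 5.30e-09), and Lcn2, an iron-carrier protein that epithelium and endothelium also make, fell from 2312 and 2496 to 1975 and 2165 CPM (-0.22 ± 0.05, edgeR adjusted p = 0.00432). The Lcn2 call was lost without medium 1 (-0.15, edgeR adjusted p = 0.359) and without medium 2 (edgeR adjusted p = 0.0891). Of 15 macrophage and leukocyte markers 7 (Adgre1, Tyrobp, C1qa, C1qb, C1qc, Mrc1 and Spi1) were at 0 in all libraries, and Ptprc, the common leukocyte antigen, had 0, 0, 1 and 0 counts. The summed level of that list was 535 and 560 CPM in control and 638 and 652 CPM in conditioned medium, from Cd68, at 220, 248, 241 and 249 CPM, and Itgb2, which rose from 311 and 307 to 392 and 398 CPM (0.36 ± 0.04, edgeR adjusted p = 5.49e-06). Other listed markers did not rise: Camp had 5, 3, 0 and 3 counts and Fcer1g 4, 3, 2 and 2. Ltf and Lyz2, with log2 fold changes of 0.35 and 0.01, were not called. Ly6g, Chil3, Camp and Fcer1g were all under the count filter. The part of Cxcr2, Itgb2, Ly6g and Chil3, which were higher in conditioned medium, in the values of S100a8 was not tested.

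**Figure D2:**
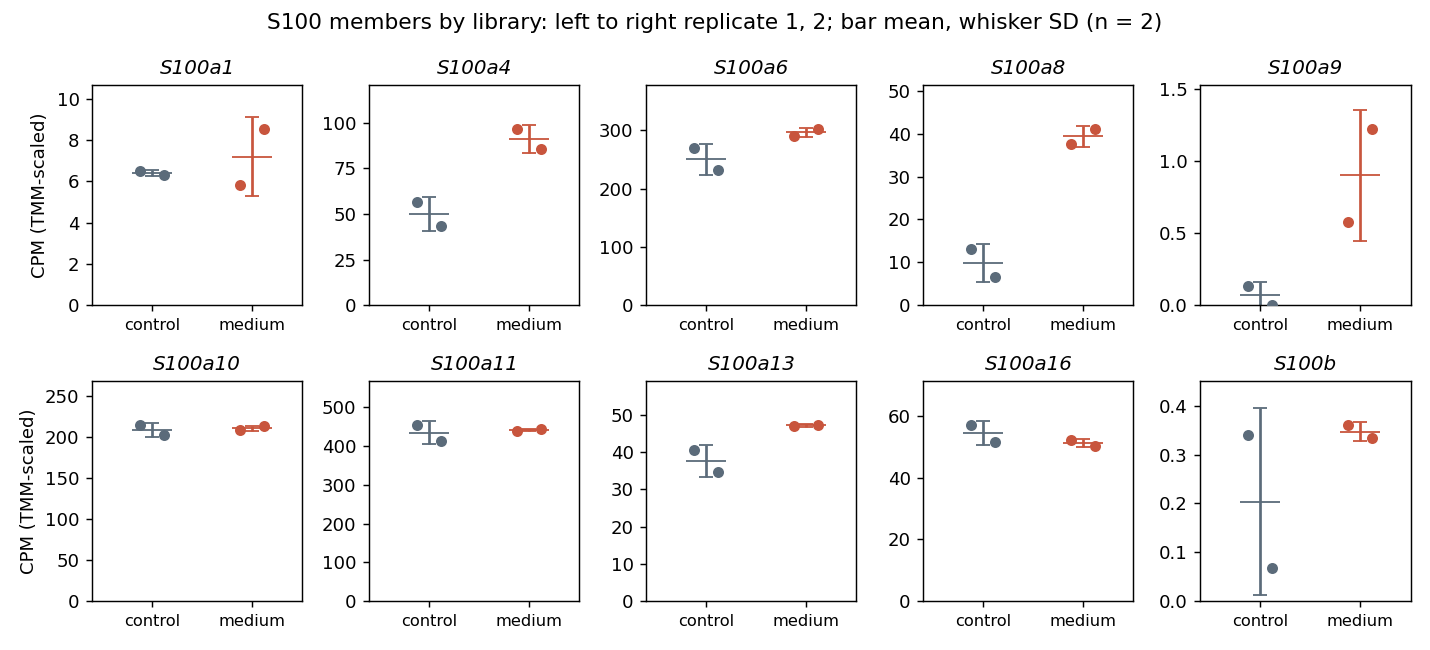
CPM of each of the 10 S100 members by library, replicate 1 left and replicate 2 right in each group, with a horizontal bar at the mean and a whisker of 1 SD (n = 2; cut at 0), every axis starting at 0. The groups do not overlap for S100a4, S100a6, S100a8, S100a9 and S100a13, with S100a9 at or under 1.22 CPM.

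S100a4 (Entrez 20198, chromosome 3, 90603770 to 90606045, plus strand), which binds non-muscle myosin heavy chain and is tied to cell motility, had 56.4 and 43.5 CPM in control and 96.6 and 85.6 CPM in conditioned medium. The groups were well apart, by more than the gap inside either pair. The means were 50 ± 9.12 and 91.1 ± 7.8 CPM, and the log2 fold change was 0.86 ± 0.08 (95% interval of the fold 1.61 to 2.05; edgeR adjusted p = 4.43e-07). Of all tested genes 1.53% had a log2 fold change at or above it. It was called in 14 of 14 alternatives, with log2 fold changes from 0.68 to 1.06. The highest edgeR adjusted p, 0.0314, came when the spread was estimated robustly. Its target Myh9, the non-muscle myosin heavy chain itself, stood at 1687, 1682, 1687 and 1710 CPM and was not called (edgeR adjusted p = 0.882).

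S100a6 (Entrez 20200, chromosome 3, 90612894 to 90614414, plus strand), also named calcyclin and linked to proliferation, had 269 and 231 CPM in control and 290 and 302 CPM in conditioned medium. All conditioned medium values were above all control values, and the smallest gap between the groups was less than the gap inside the control pair. The log2 fold change was 0.24 ± 0.06 (95% interval of the fold 1.09 to 1.28; edgeR adjusted p = 0.00442). Without medium 1 or medium 2 the edgeR adjusted p was 0.0707 or 0.202, the highest of its 14 alternatives. The calcyclin-binding protein gene Cacybp, at 75.9, 72.5, 70.4 and 62.5 CPM, was not called (edgeR adjusted p = 0.074).

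S100a13 (Entrez 20196, chromosome 3, 90514233 to 90524581, plus strand), which takes part in the release of fibroblast growth factor from stressed cells, had 40.6 and 34.6 CPM in control and 47 and 47.4 CPM in conditioned medium. The conditioned medium pair was tight and above both control libraries. The log2 fold change was 0.33 ± 0.07 (95% interval of the fold 1.13 to 1.4; edgeR adjusted p = 0.00371). It was lost in DESeq2 (adjusted p = 0.0834) and without medium 1 or medium 2 (edgeR adjusted p = 0.0629 or 0.114, the highest of its 14 alternatives). Its RefSeq span shares 98 bases with S100a1 on the opposite strand, while no overlap was found between the exons of both genes in the GENCODE annotation. The library kit does not mark strand, so reads from any shared bases cannot be assigned to either gene. Which exons the deposited counts used was not given.

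The called members shared an order between the control libraries: S100a8, S100a4, S100a6 and S100a13 were higher in control 1 than in control 2, by ratios of 1.96, 1.3, 1.17 and 1.17. Of genes with a like control count, 0.373% differed more than S100a4 did, 2.56% more than S100a6 and 6.95% more than S100a13. The other 4 tested members had the same order with ratios from 1.03 to 1.1. Among all tested genes 49.2% were higher in control 1.

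S100a11 (Entrez 20195, chromosome 3, 93520496 to 93526288, plus strand), a partner of annexin A1, had 455 and 413 CPM in control and 439 and 443 CPM in conditioned medium. Both conditioned medium values lay between the control values. The log2 fold change was 0.02 ± 0.05 (95% interval of the fold 0.948 to 1.09; edgeR adjusted p = 0.814). A processed copy, S100a11-ps, held 21, 29, 17 and 34 counts, few beside the 6041 to 7992 counts of S100a11.

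S100a10 (Entrez 20194, chromosome 3, 93555117 to 93564645, plus strand), the annexin A2 partner that places plasminogen activation at the cell surface, had 215 and 203 CPM in control and 208 and 213 CPM in conditioned medium. Its groups overlapped, with a log2 fold change of 0.01 ± 0.05 (95% interval of the fold 0.944 to 1.08; edgeR adjusted p = 0.897). Anxa2 itself had 470 and 428 CPM in control and 475 and 475 CPM in conditioned medium (0.08 ± 0.05, edgeR adjusted p = 0.251). Plat, tissue plasminogen activator, which binds S100A10, rose from 401 and 404 to 456 and 450 CPM (0.17 ± 0.04, edgeR adjusted p = 0.00704), a call that was lost without medium 1 (0.198) or medium 2 (0.169).

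S100a16 (Entrez 67860, chromosome 3, 90537254 to 90543151, plus strand), a widely expressed member, had 57.2 and 51.7 CPM in control and 52.1 and 50.4 CPM in conditioned medium, with overlapping groups. Its log2 fold change was -0.09 ± 0.06 (95% interval of the fold 0.857 to 1.03; edgeR adjusted p = 0.39). S100a1 (Entrez 20193, chromosome 3, 90511034 to 90514330, minus strand), a regulator of calcium cycling in heart muscle, had 6.5 and 6.3 CPM in control and 5.84 and 8.54 CPM in conditioned medium. The conditioned medium libraries lay on either side of the control pair, and the interval of the fold, 0.885 to 1.48, leaves a change of this size in either direction unresolved (edgeR adjusted p = 0.514). S100b (Entrez 20203, chromosome 10, 76253836 to 76261319, plus strand), known from astrocytes and other glia, had 5, 1, 5 and 6 counts. Its group sums of 6 and 11 counts gave a ratio of 1.69 (exact 95% interval 0.572 to 5.56). The glial markers Sox10 and Gfap were at 0 in all libraries.

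**Figure D3:**
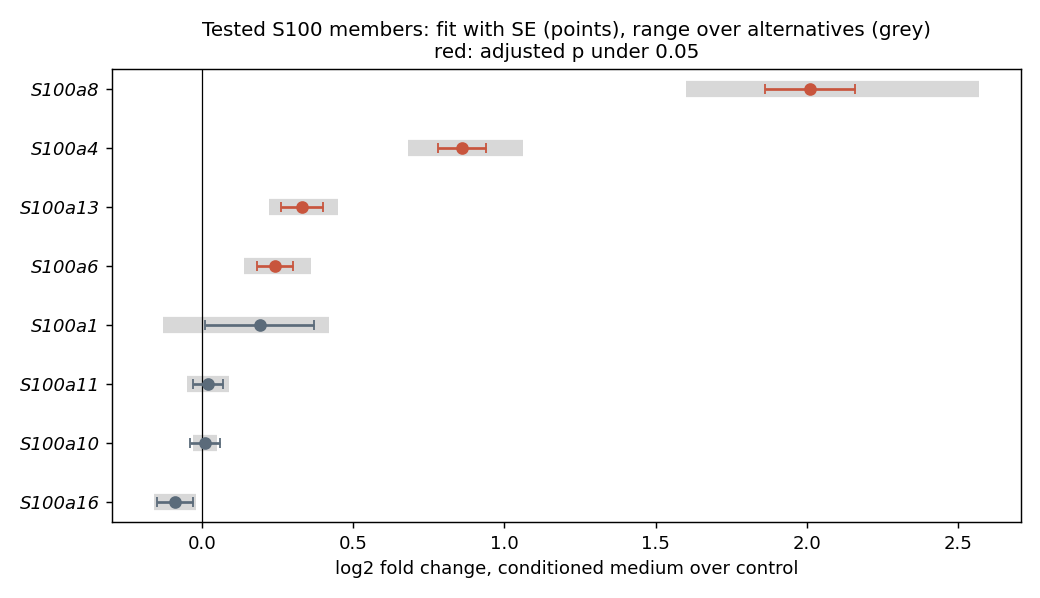
Log2 fold change, conditioned medium over control, of the 8 tested S100 members; points are the fit with SE whiskers, red where the edgeR adjusted p was under 0.05, and grey bars span all alternatives run. The bars of S100a8 (1.60 to 2.57) and S100a4 (0.68 to 1.06) lie far from 0, and those of S100a1, S100a10 and S100a11 cross it.

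The groups of 4 tested members (S100a8, S100a4, S100a6 and S100a13) did not overlap in CPM, where 57.2% of all tested genes did not. These were also the 4 called members. The 4 others overlapped.

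The remaining S100 genes of the table were low. S100a7a had 4, 9, 12 and 17 counts and was not called (1.02 ± 0.49 on the log2 scale; edgeR adjusted p = 0.166). S100a3 had 5, 7, 12 and 9 counts, S100a14 had 2, 3, 2 and 6, S100g had 2, 0, 3 and 2, and S100a2, which was added to the list later, had 0, 0, 0 and 1. S100a5, S100a7l2 and S100z were at 0 in all libraries. Of the 7 fused-type S100 genes, which encode skin barrier proteins with an S100 head, 6 were at 0 and Tchh had 1, 4, 0 and 3 counts.

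On the chromosome 9 of the 10 members lie on chromosome 3. Of these, 7 stand within 185 kb, between 90511034 and 90695721, in the order S100a1, S100a13, S100a16, S100a4, S100a6, S100a8 and S100a9; S100a11 and S100a10 follow 2825 kb further on and 28.8 kb from each other. The 4 called members were all in the stretch of 7, but not side by side: S100a16 and the near-silent S100a3, S100a2, S100a5, S100a14 and S100a7a lie among them. S100a4 and S100a6 are 6.85 kb apart and S100a8 and S100a9 22.6 kb apart. Within 200 kb of any member stood 28 other genes with a row, of which 14 were tested, 1 was called higher and 0 lower, with a median log2 fold change of 0.11. Across all tested genes 8.53% were called higher and 8.23% lower. The called neighbour was Prmt2, an arginine methyltransferase beside S100b, at 10.6, 7.73, 12.3 and 13.1 CPM (0.47 ± 0.14, edgeR adjusted p = 0.0266), whose call was lost in DESeq2 (0.29, the highest of its alternatives) and without control 2, medium 1 or medium 2. Next to the stretch on chromosome 3, Chtop (0.03 ± 0.06), Snapin (-0.13 ± 0.06), Ilf2 (0.11 ± 0.06) and Npr1 (0.15 ± 0.09) were not called.

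**Figure D4:**
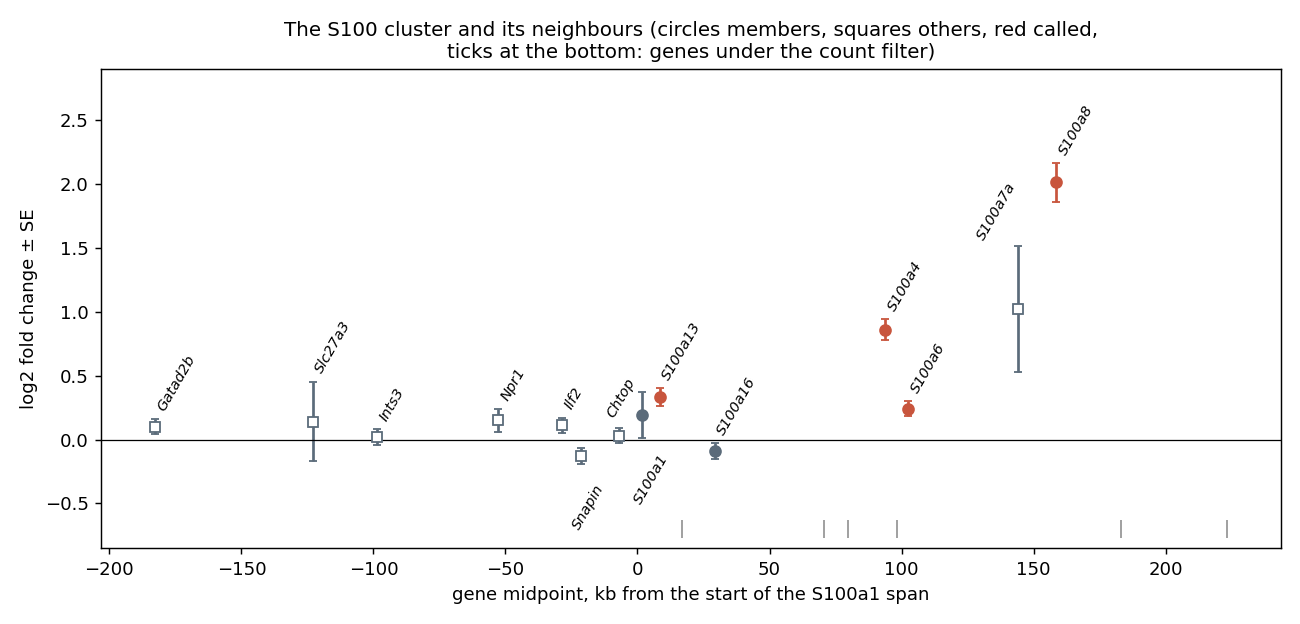
Log2 fold change with SE (vertical) against the distance of each gene's midpoint from the start of S100a1 (horizontal, kb) for the chromosome 3 stretch that holds 7 of the members. Filled circles are members and open squares other genes, red marks an edgeR adjusted p under 0.05, and ticks at the bottom are genes under the count filter; the red points are S100a13, S100a4, S100a6 and S100a8, and the squares left of S100a1 lie between -0.13 and 0.15.

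The coding sequences of the members run from 267 to 480 bases, and 9 of the 10 genes have 3 exons, of which 2 are coding; S100a13 has 4 exons. Over all 45 pairs identical bases made 36% to 62.8% of the columns of the coding alignment, gaps included, with a median of 50%. Because gaps count, this share falls where lengths differ. No share for unrelated sequences is given beside it, so it is not read as a degree of kinship. The lowest pair was S100a8 and S100a13, with coding lengths of 267 and 480 bases. The closest pair by this measure was S100a1 and S100b, at 62.8%. S100a4 and S100a6, neighbours that were both called, shared 59.5% of columns. S100a8 and S100a9, with coding lengths of 267 and 339 bases, shared 49.6%, about the median of all pairs by this measure.

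Receptors through which extracellular S100 proteins are described to signal were measured next, in a list of 10 genes. Of these 9 were tested, 4 rose and 0 fell, with a median log2 fold change of 0.11. Over all tested genes 8.53% were called higher and 8.23% lower. Alcam, an adhesion molecule of the immunoglobulin family, rose from 56.9 and 51.3 to 73.1 and 72.4 CPM (1.35-fold, edgeR adjusted p = 4.77e-05), and Mcam, its relative on endothelium, from 75 and 66.4 to 91.1 and 93.9 CPM (1.31-fold, edgeR adjusted p = 9.62e-05). Bsg, which encodes basigin, described as a receptor for S100A9, rose from 263 and 259 to 308 and 327 CPM (1.22-fold, edgeR adjusted p = 0.000133; 0.0656 without medium 2, its highest over the alternatives). The fourth was Fgfr1 (1.17-fold, edgeR adjusted p = 0.00353), named because the count is small. The best known receptors were not called: Tlr4, at 305, 303, 332 and 323 CPM, had an edgeR adjusted p of 0.0925, and Ager, which encodes RAGE, had 21, 16, 12 and 25 counts (0.865). Ly96, the TLR4 co-receptor MD-2, had 5.15, 5.68, 3.75 and 5.04 CPM (0.366). Without medium 2 the count of called receptors was 2 in place of 4. Of 12 adaptors of TLR4 and RAGE, 11 were tested and 0 were called (median 0.04); the smallest p was that of Ticam1, the adaptor TRIF, at 15.8, 18.4, 19.6 and 21.8 CPM (1.21-fold, edgeR adjusted p = 0.0693, and 0.00643 to 0.493 over its alternatives). Without control 2 the list held 2 calls.

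The partners that S100 proteins bind inside cells were counted in the same way, where 8.53% of all tested genes were called higher and 8.23% lower. Of 11 annexins 9 were tested and 1, Anxa3, rose, from 107 and 108 to 122 and 125 CPM (1.15-fold, edgeR adjusted p = 0.00584, and 0.00101 to 0.161 over its alternatives), with 0 lower and a median of -0.06. Anxa1, the partner of S100A11, had 453, 437, 434 and 453 CPM. Of 12 other partners all were tested and Plat, given with S100a10, was the 1 call (median -0.04). The counts moved when a library was left out: without control 1 there were 4 annexins and 2 partners called, without control 2 there were 2 and 2, and without medium 1 or medium 2 there were 0 and 0. In those last fits the log2 fold changes stayed close, at 0.22 and 0.19 for Anxa3 and 0.16 and 0.18 for Plat, and calls over all genes fell to 808 and 569. DESeq2 called 0 annexins.

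Among 31 other EF-hand calcium-binding genes 28 were tested, 3 rose and 6 fell, with a median log2 fold change of 0.01. By comparison, 8.53% of all tested genes were called higher and 8.23% lower. Nucb2, a Golgi calcium-binding protein, rose from 92 and 80.2 to 101 and 109 CPM (1.22-fold, edgeR adjusted p = 0.00223). Sri, which encodes sorcin, fell from 119 and 121 to 99.9 and 102 CPM (0.842-fold, edgeR adjusted p = 0.00122), and Cetn3, a centrin of the centrosome, fell from 39.3 and 36.7 to 33.6 and 30.8 CPM (0.845-fold, edgeR adjusted p = 0.0306). Calu and Hpcal1 were the other genes that rose, and calmodulin Calm2, Rcn2, Pls3 and Myl6 the others that fell. Without medium 1 the list held 1 call and without medium 2 it held 0, while calls over all genes fell from 2330 to 808 and 569 in the same fits. In these the log2 fold change of Sri was -0.24 and -0.26, that of Nucb2 0.34 and 0.24, and that of Cetn3 -0.30 and -0.18. Without control 2 the list held 14 calls. Cetn3 was lost in 5 of its 14 alternatives, among them no count filter (edgeR adjusted p = 0.0604), DESeq2 (adjusted p = 0.342) and the fit without control 1 (edgeR adjusted p = 0.111), with the highest at 0.366.

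Of 18 transcription factors described for S100a8 and S100a9, 17 were tested, 3 rose and 2 fell, with a median of 0.09. The shares over all tested genes were 8.53% called higher and 8.23% called lower. Stat3 rose from 121 and 125 to 156 and 159 CPM (1.28-fold, edgeR adjusted p = 2.26e-05). Cebpb, a regulator of myeloid and acute-phase genes, had 67.9 and 59.7 CPM in control and 70.4 and 94.6 CPM in conditioned medium (1.3-fold, edgeR adjusted p = 0.00639), a call lost without medium 2 (0.429), with a robust spread (0.408) and in DESeq2 (0.477). Its relative Cebpd fell from 30.5 and 33.3 to 23.2 and 22.7 CPM (0.718-fold, edgeR adjusted p = 0.000348). The other calls, named because the count is small, were Hif1a, at 602 and 590 CPM in control and 695 and 706 in conditioned medium, and Nfkb1, at 103 and 103 against 87.8 and 88.7 CPM. The list held 3 calls in DESeq2 and without medium 1, and 2 without medium 2. Spi1, the myeloid factor PU.1, was at 0 in all libraries. Of 7 genes of the NADPH oxidase 2 complex, which calprotectin serves in phagocytes, 3 were tested and Rac1, which many other complexes use, was the 1 called (1.1-fold, edgeR adjusted p = 0.0303); it was lost in DESeq2 (0.0514) and without medium 1 or medium 2 (0.379 and 0.334). Cybb, its catalytic subunit, had at most 0.0684 CPM.

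**Figure D5:**
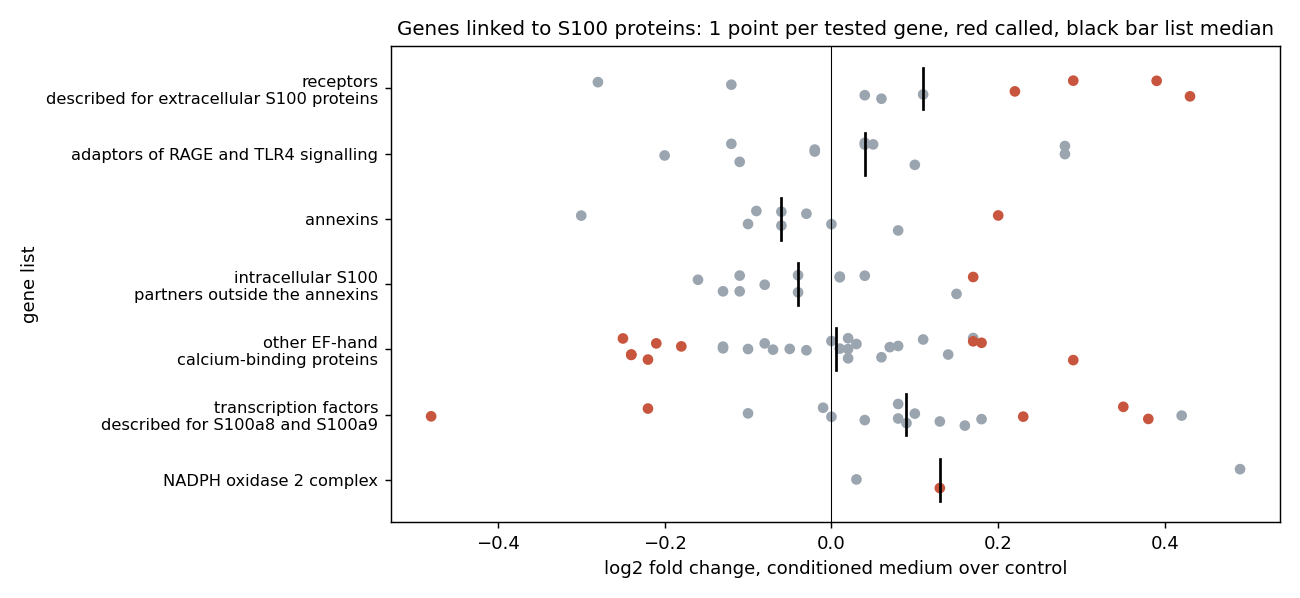
Log2 fold change, conditioned medium over control, of the tested genes of 7 lists linked to S100 proteins, 1 point per gene, red where the edgeR adjusted p was under 0.05, with a black bar at each list's median. The medians run from -0.06 for the annexins to 0.13 for the NADPH oxidase 2 complex.

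By their profile over the 4 libraries the genes nearest to S100a8 were Cstdc4, Cxcr2, Mmp3, Prkcb and Stc1, in that order, among 10814 named genes that reached 5 CPM in the mean of either group. Likeness was the Euclidean distance between log2(CPM + 0.5) profiles, each centred on its mean, and the distances were 0.64, 0.75, 0.87, 0.87 and 0.88. Cstdc4, a stefin-type protease inhibitor gene, had 1.9, 1.37, 4.91 and 6.93 CPM. The matrix protease gene Mmp3 had 3.45, 3.97, 11.8 and 13.3 CPM, the kinase gene Prkcb 2.44, 2.46, 6.93 and 8.37, and Stc1, a secreted calcium and phosphate regulator, 4.54, 3.63, 12 and 9.81. All 5 were higher in both conditioned medium libraries than in either control library, and none had a control ratio as far from 1 as the 1.96 of S100a8; the nearest was 1.39, for Cstdc4. The profile is that of 4 libraries only, and being near in it follows in large part from a like fold change.

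The other marker lists are given by the same counts, where 8.53% of all tested genes were called higher and 8.23% lower. Of 12 tested endothelial markers 2 rose and 3 fell: Robo4, a guidance receptor of resting vessels, went from 204 and 229 to 170 and 171 CPM, Eng, a co-receptor of the TGF-beta family, from 164 and 182 to 217 and 215, and Egfl7, a secreted vessel factor, from 300 and 319 to 356 and 359; Kdr and Emcn were the other markers that fell. Without medium 1 or medium 2 this list held 2 calls. Its summed level was 7306 to 7420 CPM in all libraries. Of 12 fibroblast and smooth muscle markers 3 were tested and Pdgfra rose, from 25.3 and 27 to 31.5 and 32 CPM, a call lost without control 1, medium 1 or medium 2 and in DESeq2, with a summed level of 34.7 to 43.8 CPM. Of 9 epithelial markers 3 were tested and Krt19 rose from 11 and 13 to 64 and 82 counts (5.56-fold, edgeR adjusted p = 3.85e-06), while Cdh1, Krt5 and Krt14 were at 0; the list's summed level went from 11.4 and 11.9 to 18.5 and 18.1 CPM. Of 8 glial and melanocyte markers 2 were tested and 0 were called by edgeR, with a summed level of 2.81 to 3.12 CPM. The part of these lists in the members' values was not tested.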

How the data were processed

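TruSeq RNA libraries, whose kit does not mark strand, were made from total RNA of 4 mAEC samples, per the labels' protocols. The authors deposited raw counts per gene for 27179 Entrez identifiers; per the submitters' processing notes, the mm10 build, STAR 2.5.2b and featureCounts with Subread 1.4.6-p1 were used. Their settings, the gene annotation and the treatment of reads shared by genes were not given in the sources used here. Identifiers were matched to RefSeq genes of GRCm38.p6 (25275 matched); the 1904 unmatched rows, 6.31% of the counts, were kept, unnamed, in the totals and the fit. Library totals were 14966911, 14493674, 13815695 and 18005840 counts.

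Counts were fitted with edgeR 4.0.16 in R 4.3.3 (filterByExpr with minimum count 10 and total 15, TMM factors 0.9866 to 1.008, two-sided quasi-likelihood test with no replicate block, Benjamini-Hochberg over 13897 genes, called at an adjusted p under 0.05; 2 residual degrees of freedom, biological coefficient of variation 3.58%). Each SE is the size of the log2 fold change divided by the root of its F statistic. CPM values are TMM-scaled. Exon and coding lengths came from the GENCODE M21 annotation, and promoter windows from RefSeq. The fit was tested on simulated data. Alternatives were 3 other scalings, 2 other filters, a replicate block, a robust spread, DESeq2 1.42.0, limma-voom (limma 3.58.1), thinned counts and each library left out, where the lone library was assumed to vary like the other group. Summing S100a11 with its processed copy and levels by coding length were added after seeing the data.

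The members and lists were chosen with earlier results of these data known. Named genes were all S100 genes, the up to 3 called genes of each list and beside the members with the largest absolute log2 fold change (else the smallest p), and the 5 profiles nearest to S100a8; others named are said to be outside this rule or are textbook partners, receptors and markers given for reference. A gene that meets the rule is not reported here.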

Additional observations from a re-analysis of the deposited data

How the results depend on the processing

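Over 14 alternatives for each tested member (15 for S100a11), 103 of 113 log2 fold changes of the members kept their direction and their side of an adjusted p of 0.05, 6 were no longer called, 0 became called and 4 changed sign. The sign changes were all in members not called. S100a1 turned with the conditioned medium library left out, at -0.13 without medium 2 and 0.42 without medium 1. Those of S100a10 and S100a11 were near 0. S100a10 was at -0.03 without control 2 and -0.01 without medium 2 (up to 0.05), and S100a11 at -0.05 without control 2 (up to 0.09). Of 388 values of 28 other named genes, 353 were the same, 33 lost their call and 2 gained one. Scalings moved the median of all genes by at most 0.02. DESeq2 called 857 genes in place of 2330, 435 higher and 422 lower; the cause was not tested. With a library left out the number of genes called ran from 569 (without medium 2) to 3107, those higher from 323 to 1485 and those lower from 246 to 1622; it was 808 without medium 1. The members called, and called higher, ran from 2 (without medium 2) to 5 of those tested. The 5 includes S100a9, which passed the filter with a library left out only through the 22 counts of medium 2. S100a9 is therefore not read as a further member called higher, beyond the 4 of the main fit. With the replicate number as a block 2671 genes and 4 members were called, and the block changed no call of a member; it gave 1 call among the adaptors, 3 among the partners outside the annexins, 2 among the neighbours and 0 in the NADPH oxidase list. Deviations of libraries with the same number were uncorrelated across 10662 genes (-0.0434), and with 2 pairs the numbers were taken as names only. With 2 libraries a group, at the depth given, genes such as S100a9 and S100b cannot be resolved beyond their counting intervals.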
